A study of Mus musculus with 9 samples.

Results

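The transcription factors described here are 8 proteins that set the fate of the dental epithelium or regulate the transcription of amelogenin, outside the Dlx and Msx families: Sp6, Runx1, Runx2, Satb1, Trp63, Cebpa, Foxo1 and Bcl11b. They were chosen by name, and each was found once among the 54532 genes of the count table. All 8 passed the filter on low counts that left 15909 genes for testing. RNA was sequenced from enamel organs of first molars of male mouse pups at postnatal day 12, with 1 library per pup. The early life adversity (ELA) group held 5 pups whose dams were kept with limited bedding and nesting material from postnatal day 2 to 12, and the control group held 4 pups whose dams had standard material. Every pup of both groups was the offspring of a Crh-IRES-Cre +/+ dam and an Ai14 tdTomato male on a C57Bl6 background, so that controls carry the same Cre and reporter alleles as ELA pups. According to the study, the lightest ELA pups were excluded after the first enamel measurements, so the ELA group does not cover the full weight range of such litters. By the mean weights it gives, the sequenced ELA pups were still lighter than the sequenced controls. An effect of body weight therefore cannot be told apart from that of ELA. Mice are called by their titles. The ELA titles carry the number t-203 (3 mice) or t-205, the control titles c-202 or c-204, without a stated meaning. For qPCR, the study took male pups from 2 ELA litters (5 mice) and 2 control litters (4 mice). Whether the title numbers are these litters is not stated. Because no title number occurs in both groups, any effect of it cannot be told apart from that of ELA.

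The enamel organ is the epithelial part of the tooth germ. Its inner layer differentiates into ameloblasts, which first secrete a matrix of amelogenin, ameloblastin and enamelin and later, at the maturation stage, degrade this matrix and drive its mineralization. Trp63 keeps the epithelial identity of the tissue, Sp6 (epiprofin) is required for ameloblast differentiation in mice, and Bcl11b and Satb1 act in the polarity, proliferation or secretion of dental epithelial cells. The Runt factors Runx1 and Runx2 bind DNA with the partner Cbfb, C/EBPα (Cebpa) is an activator of the mouse amelogenin promoter, and Foxo1 is needed for normal enamel maturation in mice.

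Libraries held 18056774 to 32110160 counts in ELA mice and 18683431 to 20831736 counts in control mice. CPM values are counts scaled to library size, here by TMM. The epithelial keratin and adhesion genes that mark the tissue were present in every library, their summed level being 7499 to 13031 CPM in ELA and 9433 to 14900 CPM in controls, and ameloblast markers, Amelx included, summed to 104741 to 167739 CPM in ELA and to 78779 to 104321 CPM in controls. The libraries also held markers of neighbouring tissue: mesenchyme markers summed to 12021 to 23389 CPM in ELA and to 15715 to 31032 CPM in controls. Neuron markers were at 597.5 CPM in the ELA mouse t-203-1-4, against at most 104.8 CPM in the other ELA mice and 54.8 to 82.0 CPM in controls. In bulk tissue, fewer cells of a type and less RNA per cell cannot be told apart. Counts were per gene, so that isoforms of Trp63 or products of the separate promoters of Runx1 and Runx2 were not resolved.

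Before the values, the promoters of enamel genes are shown, because the name of C/EBPα comes from the letters CCAAT, and the same pentamer is the site of NF-Y, its partner on the amelogenin promoter. The sequences are the 120 bases up to the RefSeq start of each gene on GRCm38.p6, 5′ to 3′ on the strand of the gene, with each CCAAT, or its reverse complement ATTGG, in capitals. Amelx (amelogenin, chrX:169187210-169187329, minus strand), Ambn (ameloblastin, chr5:88455871-88455990, plus strand) and Enam (enamelin, chr5:88487855-88487974, plus strand) code for the secreted matrix, and Klk4 (chr7:43881040-43881159, plus strand) codes for a protease of the maturation stage.
Amelx: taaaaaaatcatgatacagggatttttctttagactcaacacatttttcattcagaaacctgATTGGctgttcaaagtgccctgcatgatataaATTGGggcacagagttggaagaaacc
Ambn: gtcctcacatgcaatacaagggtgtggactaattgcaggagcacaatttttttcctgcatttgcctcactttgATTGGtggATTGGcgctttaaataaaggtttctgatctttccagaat
Enam: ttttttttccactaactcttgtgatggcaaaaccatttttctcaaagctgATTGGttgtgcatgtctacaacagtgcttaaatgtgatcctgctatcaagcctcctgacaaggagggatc
Klk4: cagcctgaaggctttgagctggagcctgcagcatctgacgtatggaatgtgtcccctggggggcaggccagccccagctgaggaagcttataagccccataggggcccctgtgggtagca

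In all 3 matrix gene windows the pentamer lay on the opposite strand. Counted back from the start, it was at bases 58 to 54 and 26 to 22 in Amelx, at bases 47 to 43 and 39 to 35 in Ambn, and at bases 70 to 66 in Enam. Just beyond the window, Ambn also held the pentamer on its own strand, at bases 125 to 121. The windows of Amtn (amelotin) and Odam (odontogenic ameloblast-associated protein) had it 1 time each, at bases 66 to 62 and 62 to 58. Klk4 and the matrix protease gene Mmp20 did not have these letters in the window. Of all 32851 promoter windows of this length, 21.3% held the pentamer on either strand. The longer letters TTGCNNAA, a form of the C/EBP site itself, were found on either strand in 4.15% of all windows and in none of the 7 enamel gene windows. A match in letters is a description and not a measured binding site.

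Of the 8 factors, 6 had a promoter in the RefSeq table, Sp6 and Trp63 being the exceptions. Foxo1 and the distal promoter of Runx1 held CCAAT 2 times each within 120 bases of the start, and the window of Runx2 held TTGCNNAA at bases 48 to 41 and the Runt motif TGTGGT, on the opposite strand, at bases 80 to 75. TGTGGT was in 6.72% of all windows. The distal starts of Runx1 and Runx2 are followed by an identical stretch of 22 bases, shown because these paralogues are compared below. Its capitals mark 2 copies of the Runt motif on the opposite strand.
Runx1 (chr16:92826030-92826051, minus strand): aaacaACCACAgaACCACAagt
Runx2 (chr17:44814588-44814609, minus strand): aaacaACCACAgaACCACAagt
The stretch begins 24 bases after the start in Runx1 and 19 bases after it in Runx2, and among all 32851 promoter entries it was present in these 2 only.

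The levels of the factors were compared per gene length, as FPKM computed from the counts, the library total and the deposited gene length. Trp63 had the highest level of the 8 genes (52.7 ± 11.7 FPKM, mean ± SD over 9 mice), followed by Runx2 (29.5 ± 9.07 FPKM), Foxo1 (26.6 ± 5.93 FPKM) and Runx1 (16.2 ± 5.41 FPKM). Lower levels were measured for Satb1 (6.63 ± 1.46 FPKM), Cebpa (4.62 ± 1.02 FPKM), Bcl11b (2.20 ± 0.512 FPKM) and Sp6 (1.18 ± 0.274 FPKM). Trp63, Runx2, Foxo1 and Runx1 were thus among the well expressed genes of the tissue, 82.0% of the genes tested being below Runx1 and 95.003% below Trp63, whereas 35.6% were below Bcl11b and 24.6% below Sp6. The median of all genes tested was 4.25 FPKM.

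Most neighbours in this order were not separated by their spread. The ranges over the 9 mice were apart for Runx1 above Satb1 and for Cebpa above Bcl11b, and the other 5 neighbouring pairs overlapped. Within single libraries the order was firmer: Trp63 exceeded Runx2 in 9 of 9 mice, Foxo1 exceeded Runx1 in 9 of 9 and Bcl11b exceeded Sp6 in 9 of 9. Runx2 exceeded Foxo1 in 5 of 9 mice, so these had no fixed order, and Satb1 exceeded Cebpa in 7 of 9.

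**Figure D1:**
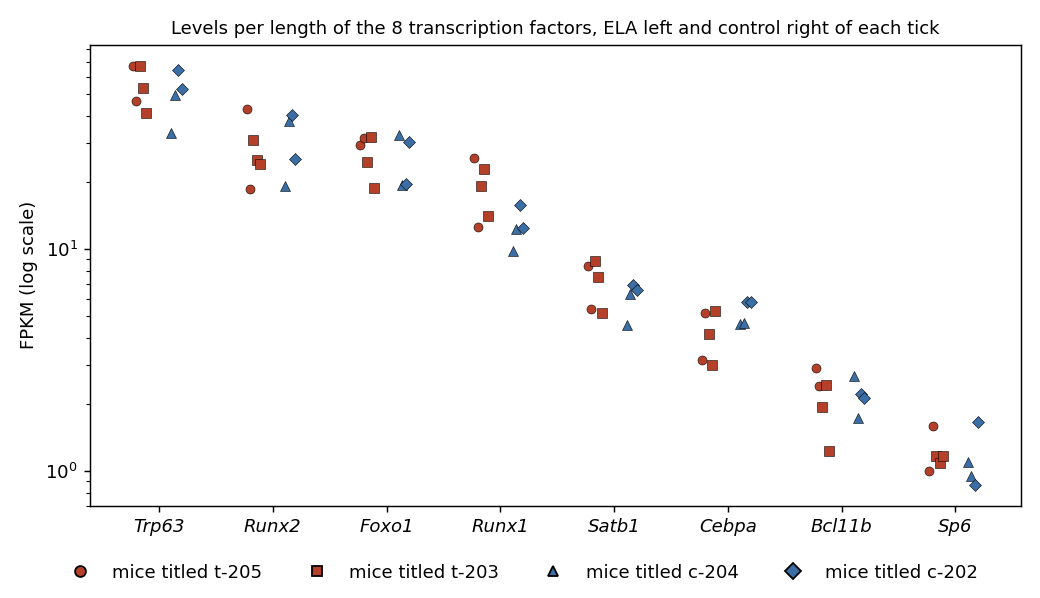
Level per gene length (FPKM, log scale) of each factor in each mouse, ordered by the mean over 9 mice, with ELA mice on the left and control mice on the right of each tick and the shape giving the title number. Trp63 averaged 52.7 FPKM and Sp6 1.18 FPKM, and a gap between ranges is seen below Runx1 and below Cebpa.

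The main question was whether ELA changed the mRNA of these factors. None of the 8 factors passed the adjusted threshold in edgeR's quasi-likelihood test across all genes, where 0.0629% of the genes tested were called. At an unadjusted p under 0.05, 1 factor (Runx1) passed, against 6.44% of all genes tested, and in no factor were the ELA and control mice fully separate, against 2.68% of all genes tested. By DESeq2, which called 79 genes higher and 59 lower in ELA, the count of factors called was 0 as well. Fold changes were positive for 6 factors and negative for 2, with a median log2 fold change (ELA over control) of 0.16, against 0.013 over all genes tested, of which 52.6% were positive.

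**Figure D2:**
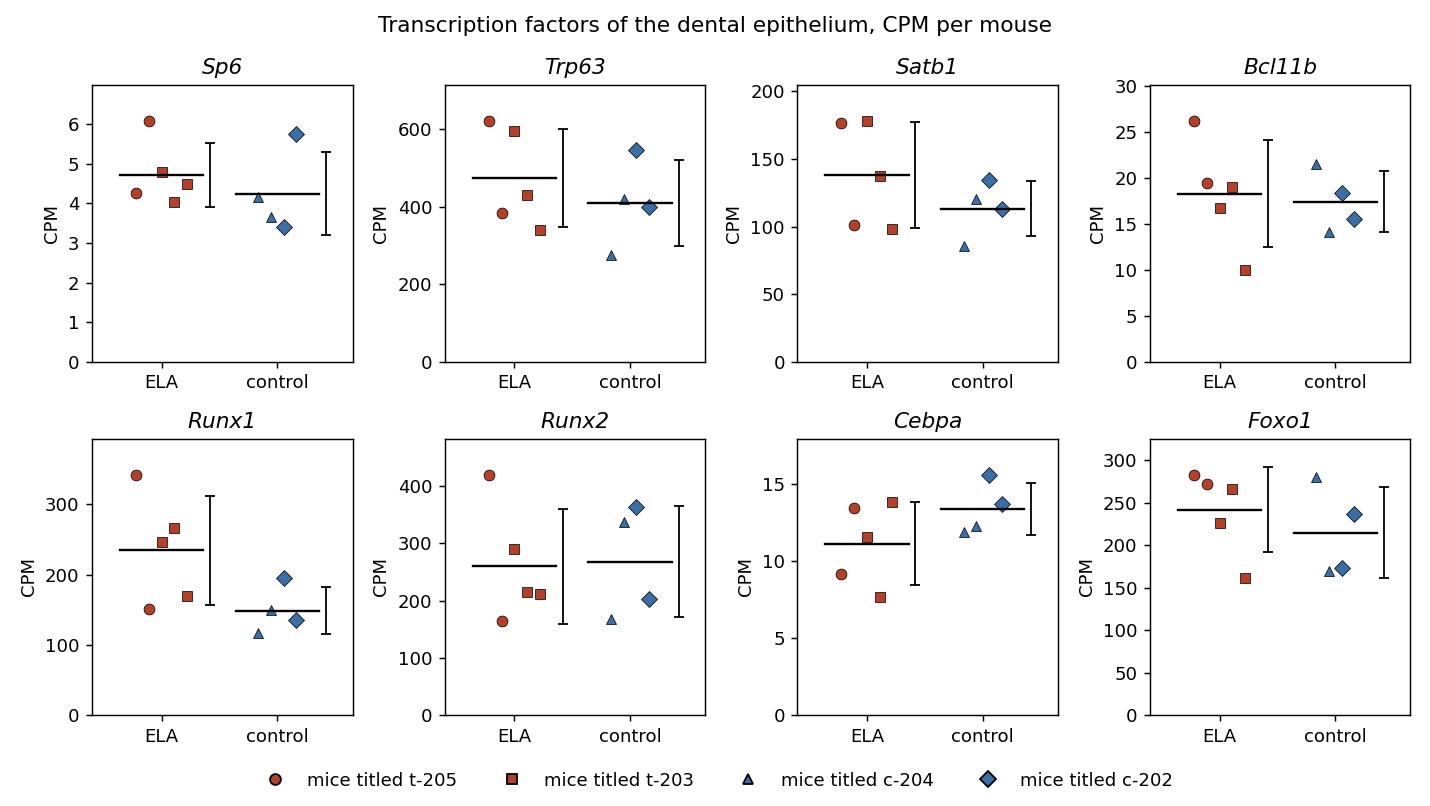
CPM of the 8 factors in each mouse, ELA left and control right, with the axis from 0. Horizontal lines are group means, error bars are SDs (5 ELA and 4 control mice) and shapes give title numbers. The groups overlap in every panel, and for Runx1 3 of 5 ELA mice lie above all controls.

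Runx1 (ENSMUSG00000022952, chr16:92601466-92826149, minus strand) is a Runt factor that in mice acts in epithelial stem cells of hair and tooth. It was at 341.8, 150.6, 246.7, 265.6 and 169.0 CPM in the ELA mice t-205-1-1, t-205-1-3, t-203-1-3, t-203-1-4 and t-203-1-5, against 116.4, 149.5, 194.5 and 135.0 CPM in the control mice c-204-1-1, c-204-1-2, c-202-1-1 and c-202-1-2. The mice t-205-1-1, t-203-1-3 and t-203-1-4 were above every control, and the other two ELA mice lay within the control range. The means were 234.7 ± 77.4 CPM in ELA and 148.8 ± 33.3 CPM in controls (SD, n = 5 and 4). The log2 fold change was 0.66 (SE 0.243; 95% interval of the fold 1.09 to 2.28), with an unadjusted p of 0.0195 and an edgeR adjusted p of 0.632. By p it ranked 486 of the 15909 genes tested, and by size of the fold it ranked 767. Without the control mouse c-204-1-1, which had the lowest Runx1 level, the unadjusted p was 0.060 in edgeR. Runx1 is also a factor of blood cells. The 6 B cell markers, all with negative log2 fold changes, summed to 4.68 to 13.7 CPM in ELA and to 25.1 to 47.5 CPM in controls, and the part of blood cells in the Runx1 level was not tested.

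Runx2 (ENSMUSG00000039153, chr17:44495987-44814797, minus strand), the master factor of osteoblasts that is also expressed in maturation-stage ameloblasts, was at 419.4, 163.5, 289.8, 215.5 and 211.5 CPM in the ELA mice in the same order, against 168.3, 336.5, 363.6 and 203.04 CPM in controls. The ranges lay almost on top of each other, the highest and the lowest mouse both being ELA mice with the title number t-205. Means were 259.9 ± 99.9 CPM in ELA and 267.9 ± 96.6 CPM in controls, with a log2 fold change of -0.043 (SE 0.299; interval of the fold 0.616 to 1.53; edgeR adjusted p = 0.999). Its sign turned in some of the alternative fits. Osteoblast markers other than Runx2 summed to 5449, 9433, 6654, 6842 and 13094 CPM in the ELA mice, in that order. In controls they summed to 12445, 10456, 6716 and 15096 CPM. Most of this sum came from Col1a1, also a mesenchyme marker, which averaged 5510 CPM in ELA and 8123 CPM in controls. Alpl averaged 1651 CPM in ELA and 1322 CPM in controls. The sum was lowest in t-205-1-1, the mouse highest in Runx2, and highest in c-202-1-2. Of these 8 markers 6 had a negative log2 fold change (median -0.59), and at an unadjusted p under 0.05 Ibsp, Spp1 and Dmp1 were lower and Alpl was higher in ELA. Their part in the Runx2 level, and in the ratio of Runx1 to Runx2 below, was not tested. Runx2 shares its locus with Supt3 on the opposite strand, which had 273 to 937 counts per library, and without known strand handling their reads cannot be told apart where exons overlap.

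Because the paralogues were counted in the same libraries, their ratio does not depend on normalization. The count of Runx1 over that of Runx2 was 0.815, 0.921, 0.851, 1.23 and 0.799 in the ELA mice, against 0.692, 0.444, 0.535 and 0.665 in controls. Every ELA mouse had a higher ratio than every control mouse, and Runx1 exceeded Runx2 in count in t-203-1-4 alone. The mean log2 ratio was -0.13 ± 0.256 in ELA and -0.80 ± 0.297 in controls, a difference of 0.66 or 1.59-fold (two-sided exact permutation test over all assignments of the mice, p = 0.0159, the smallest p this design can give). The test takes the mice as independent: with the 4 title numbers as units, 2 against 2, no p under 0.333 could be had. When each mouse was left out in turn, the difference was 0.54 to 0.75 on the log2 scale. Of the 28 pairs that the 8 factors form, this was the 1 pair whose ratio did not overlap between ELA and control, while the other 27 overlapped. For single genes such separation occurred in 2.68% of those tested, the share among ratios of other gene pairs was not computed, and 1 of 28 is not read as more than background. The p was not adjusted for these 28 pairs, and the count of pairs was made after the ratio had been seen.

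**Figure D3:**
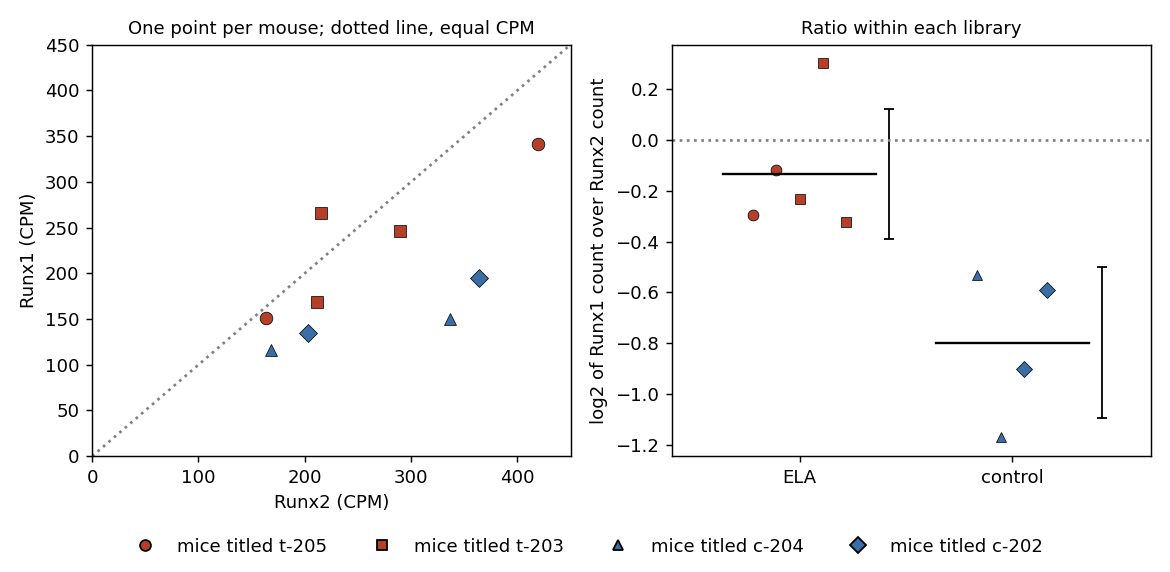
Left, CPM of Runx1 against CPM of Runx2, 1 point per mouse, with a dotted line at equal CPM. Right, log2 of the Runx1 count over the Runx2 count, ELA left and control right, with group means (lines) and SDs (error bars). All 5 ELA mice lie above all 4 controls in the ratio, whose means were -0.13 and -0.80.

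Trp63 (ENSMUSG00000022510, chr16:25683763-25892102, plus strand), the p53 family member that maintains stratified and dental epithelium, was at 621.4, 384.8, 594.6, 430.3 and 341.3 CPM in the ELA mice, against 276.1, 419.1, 547.4 and 398.7 CPM in controls. Its 2 highest mice were in ELA and its lowest was a control, but the groups overlapped widely. Means were 474.5 ± 126.2 CPM in ELA and 410.3 ± 111.1 CPM in controls, and the interval of the fold, 0.816 to 1.64, includes no change (log2 fold change 0.21, SE 0.230, edgeR adjusted p = 0.999).

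Satb1 (ENSMUSG00000023927, chr17:51736187-51833290, minus strand), a CUT-domain organizer of chromatin, was at 176.3, 100.8, 178.0, 137.4 and 97.9 CPM in the ELA mice, against 85.4, 120.3, 134.2 and 112.8 CPM in controls. The mice t-205-1-1, t-203-1-3 and t-203-1-4 were above all controls, as they were for Runx1, and the other two fell inside the control range. Means were 138.1 ± 38.9 CPM in ELA and 113.2 ± 20.5 CPM in controls, with a log2 fold change of 0.29 (SE 0.212; interval of the fold 0.885 to 1.68; edgeR adjusted p = 0.944).

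High levels of Runx1, Satb1 and Trp63 went with low mesenchyme marker sums in some mice, but not all factors followed. The 3 ELA mice that were highest in Runx1, Satb1 and Trp63 had the lowest mesenchyme marker sums of all mice, at 12117 CPM in t-205-1-1, 12021 CPM in t-203-1-3 and 13185 CPM in t-203-1-4. Most of this sum came from the collagen genes Col1a1, Col1a2 and Col3a1, which averaged 5510, 5870 and 2674 CPM in ELA. Col1a1 is also one of the osteoblast markers. Among controls, c-202-1-1 was the highest for Runx1, Runx2, Satb1 and Trp63 and had the lowest sum, 15715 CPM. The same mouse was the lowest of all mice for Sp6 (3.40 CPM) and was at 173.4 CPM for Foxo1. The control c-204-1-1, with a sum of 28313 CPM, had the highest Foxo1 level among controls (279.9 CPM). Cebpa was highest of all mice in c-202-1-1 (15.6 CPM) and lowest in t-203-1-4 (7.65 CPM). Of the 10 mesenchyme markers 9 had a negative log2 fold change (median -0.50) and 6 were lower in ELA at an unadjusted p under 0.05 (6.44% of all genes tested, either direction), whereas the 6 epithelial markers were 3 positive and 3 negative (median -0.029). The part of tissue composition in the Runx1, Satb1 and Trp63 values was not tested.

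Sp6 (ENSMUSG00000038560, chr11:97013394-97024734, plus strand), a zinc finger factor, had 68 to 145 counts per library, the fewest of the 8. It was at 4.27, 6.08, 4.78, 4.02 and 4.48 CPM in the ELA mice, against 4.17, 3.66, 3.40 and 5.75 CPM in controls. The 2 highest mice came from different groups and the rest lay close together. Means were 4.72 ± 0.805 CPM in ELA and 4.25 ± 1.05 CPM in controls (log2 fold change 0.15, SE 0.231, interval of the fold 0.784 to 1.58, edgeR adjusted p = 0.999).

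Bcl11b (ENSMUSG00000048251, chr12:107910403-108003602, minus strand), known as Ctip2 and required in mice for ameloblast formation, was at 26.2, 19.4, 16.8, 19.1 and 9.98 CPM in the ELA mice, against 21.6, 14.2, 18.4 and 15.6 CPM in controls. The highest and the lowest mouse were both in ELA, and the controls lay between them. Means were 18.3 ± 5.83 CPM in ELA and 17.4 ± 3.28 CPM in controls (log2 fold change 0.067, SE 0.240, interval of the fold 0.729 to 1.51, edgeR adjusted p = 0.999), and this small difference changed sign in some of the alternative fits. Bcl11b is also a T cell factor. Of 8 T cell markers 3 were tested, Cd3e, Cd3d, Cd3g, Cd8a and Cd247 being under the filter, and the summed level of the list was 3.12 to 6.27 CPM in ELA and 3.79 to 6.43 CPM in controls. Most of the sum came from Cd4, which averaged 2.99 CPM in ELA and 3.31 CPM in controls. Cd3e was at 0 in every ELA mouse. The part of T cells in the Bcl11b level was not tested.

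Cebpa (ENSMUSG00000034957, chr7:35119293-35121928, plus strand), the activator of amelogenin transcription, was at 9.19, 13.5, 11.6, 7.65 and 13.8 CPM in the ELA mice, against 11.9, 12.3, 15.6 and 13.7 CPM in controls. The mice t-205-1-1, t-203-1-3 and t-203-1-4 were below every control, and these are the same ELA mice that were highest in Runx1. Means were 11.1 ± 2.68 CPM in ELA and 13.4 ± 1.68 CPM in controls. The log2 fold change was -0.26 (SE 0.195; interval of the fold 0.620 to 1.12; edgeR adjusted p = 0.944), so the interval reaches a fold of at most 1.12 on the higher side. Cebpa is also expressed by myeloid cells and adipocytes. Myeloid markers summed to 122 to 209 CPM in ELA and to 141 to 218 CPM in controls, with 9 of 9 negative in log2 fold change (median -0.21). Of these only Elane, averaging 0.272 CPM in ELA and 1.14 CPM in controls, had an unadjusted p under 0.05 in edgeR (6.44% of all genes tested, either direction). Adipocyte markers summed to 5.14 to 10.3 CPM in ELA and to 3.32 to 3.84 CPM in controls. The adipocyte sum came from Fabp4 and Pparg, since Adipoq, Plin1, Cidec and Lep were under the filter, with Adipoq at 0 in every ELA mouse and Lep at 0 in all mice. Their part in the Cebpa level was not tested.

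Foxo1 (ENSMUSG00000044167, chr3:52268336-52353221, plus strand), a forkhead factor downstream of insulin signaling, was at 283.1, 272.6, 226.4, 266.4 and 161.9 CPM in the ELA mice, against 279.9, 169.6, 173.4 and 237.0 CPM in controls. The mouse t-205-1-1 was just above all controls, t-203-1-5 was just below them, and the other ELA mice lay within their range. Means were 242.1 ± 49.7 CPM in ELA and 215.0 ± 53.2 CPM in controls (log2 fold change 0.17, SE 0.203, interval of the fold 0.828 to 1.53, edgeR adjusted p = 0.999).

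The width of the intervals sets what these libraries could show. The SE of the log2 fold change was 0.195 to 0.299 for the 8 factors, against a median of 0.205 over all genes tested. Except for Runx1, each interval includes no change. They reach a fold of 1.68 in Satb1 and of 0.616 in Runx2.

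**Figure D4:**
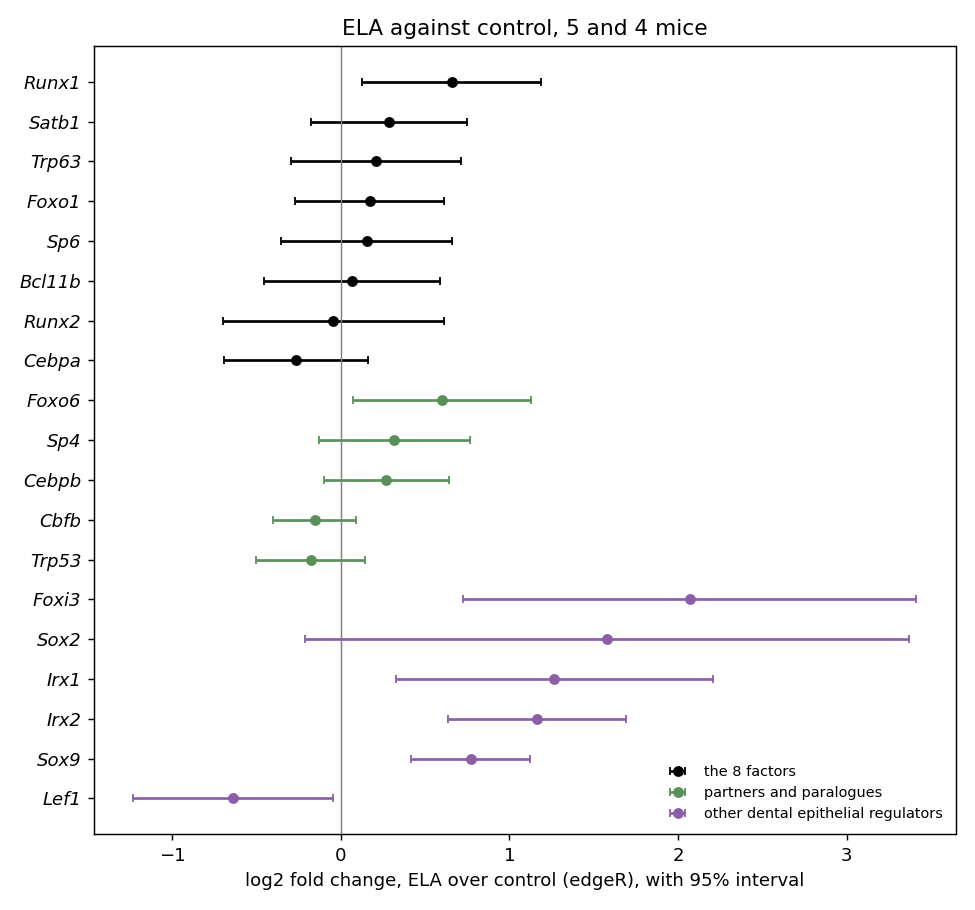
Log2 fold change of ELA over control with its 95% interval (edgeR, 5 and 4 mice) for the 8 factors, 5 partners or paralogues and the 6 other dental epithelial regulators of smallest p. Of the 8 factors only the interval of Runx1 (0.13 to 1.19) leaves out 0, and Sox9 and Irx2 lie farther from 0 relative to their intervals.

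The genes that these factors are known or proposed to regulate were followed next. Of 15 target genes tested, 1 passed the adjusted threshold (Amelx, higher in ELA), 3 were higher and 0 lower at an unadjusted p under 0.05 (0.0629% and 6.44% of all genes tested, either direction), and the median log2 fold change was 0.045. Amelx, the main matrix gene, was at 24283, 15194, 34886, 26996 and 27586 CPM in the ELA mice, against 8472, 8216, 9451 and 8773 CPM in controls. All ELA mice were above all controls, and among ELA mice t-205-1-3 was the lowest. Amelx rose to 25789 ± 7106 CPM in ELA, against 8728 ± 533 CPM in controls (log2 fold change 1.56, SE 0.222, edgeR adjusted p = 0.0477, DESeq2 adjusted p = 3.33e-10). When single mice were left out, its adjusted p in edgeR was 0.00619 to 0.274. Amelx lies within Arhgap6 on the opposite strand. Without known strand handling, reads of these genes cannot be told apart where exons overlap, and such overlap was not examined for Amelx.

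Enam was at 649, 389, 4191, 4642 and 2121 CPM in the ELA mice, against 72.3, 66.1, 48.8 and 55.9 CPM in controls. It was separate between groups, with the ELA mice of title number t-203 above those of t-205 (log2 fold change 5.30, SE 0.789, edgeR adjusted p = 0.0570, DESeq2 adjusted p = 4.35e-10). With counts summed by title number its adjusted p was 0.809 in edgeR. Ambn, the third matrix gene, averaged 71537 ± 13244 CPM in ELA and 49523 ± 6273 CPM in controls (log2 fold change 0.53, edgeR adjusted p = 0.579), with the lowest ELA mouse inside the control range. The log2 fold changes of Amtn and Odam, whose products lie between ameloblast and enamel at the maturation stage, were 0.40 and -0.24.

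The remaining targets stayed under the threshold. The proteases Klk4, of the maturation stage, and Mmp20, mainly of the secretory stage, had log2 fold changes of 0.00083 and 0.081, the basal keratins Krt5 and Krt14, targets of Trp63, of -0.13 and -0.34, and the adhesion genes Perp, Itgb4 and Dsc3 of -0.18, 0.040 and 0.059. The notch ligand Jag2 was at 0.045 and the kinase Rock1 at 0.025. The activin antagonist Fst was at 0.70 (unadjusted p = 0.126 in edgeR), and without the control mouse c-202-1-2 (47.6 CPM, other controls 9.44 to 22.4 CPM) at 1.31 (unadjusted p = 0.0019, adjusted p = 0.323). With any other single mouse left out, Fst was at 0.44 to 0.82 (unadjusted p of 0.102 to 0.275 in edgeR). For Trp63 targets as for Trp63, no gene passed the adjusted threshold.

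Of 26 partners and paralogues of the factors 23 were tested, Sp5, Sp8 and Cebpe being under the filter. None passed the adjusted threshold, 1 was higher and 0 lower at an unadjusted p under 0.05 (6.44% of all genes tested, either direction), and log2 fold changes were 13 positive and 10 negative with a median of 0.0052. Foxo6, a forkhead paralogue of Foxo1 that is expressed in dental epithelium, was at 60.0, 132.5, 98.9, 96.2 and 102.1 CPM in the ELA mice, against 71.4, 51.3, 45.4 and 89.8 CPM in controls. Of the ELA mice all but t-205-1-1 were above every control (log2 fold change 0.60, SE 0.241, unadjusted p = 0.0287, edgeR adjusted p = 0.682).

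Cbfb, the shared partner of Runx1 and Runx2, varied little between mice. It averaged 126.5 ± 10.9 CPM in ELA and 140.7 ± 8.63 CPM in controls (log2 fold change -0.15, SE 0.113, unadjusted p = 0.198 in edgeR). Cebpb, a paralogue of Cebpa, averaged 25.7 ± 4.09 CPM in ELA and 21.3 ± 4.31 CPM in controls (log2 fold change 0.27). Log2 fold changes of Sp4, a paralogue of Sp6, and of Trp53, a paralogue of Trp63, were 0.32 and -0.18.

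Other regulators of the dental epithelium, outside the 8 factors, gave larger differences in some cases. Of 27 such genes 25 were tested, Isl1 and Ascl5 being under the filter. None passed the adjusted threshold in edgeR, while 4 were higher and 1 lower at an unadjusted p under 0.05, which 6.44% of all genes tested passed in either direction. Log2 fold changes were 18 positive and 7 negative, with a median of 0.30 against 0.013 over all genes tested.

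Sox9, an HMG-box factor of epithelial progenitors and cartilage, was at 38.7, 41.3, 34.6, 40.2 and 26.7 CPM in the ELA mice, against 19.1, 20.1, 19.5 and 26.4 CPM in controls. All ELA mice were above all controls, t-203-1-5 only just. The log2 fold change was 0.77 (SE 0.160), with an adjusted p of 0.145 in edgeR and of 0.00931 in DESeq2.

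Irx2, an Iroquois homeobox factor, was at 31.9, 51.1, 50.4, 45.9 and 43.9 CPM in the ELA mice, against 13.4, 16.6, 17.8 and 32.03 CPM in controls. The groups touched at t-205-1-1 and c-202-1-2 (log2 fold change 1.16, SE 0.242, adjusted p = 0.145 in edgeR and 0.00181 in DESeq2). Its neighbour in the same gene cluster, Irx1, was at 35.7, 95.3, 114.4, 93.8 and 84.8 CPM in the ELA mice, against 14.5, 26.2, 36.7 and 63.8 CPM in controls. As for Irx2, t-205-1-1 was the only ELA mouse inside the control range (log2 fold change 1.27, SE 0.424, edgeR adjusted p = 0.569).

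Foxi3, Lef1 and Sox2, which act in early tooth epithelium, were at low levels. Foxi3 averaged 1.94 ± 1.10 CPM in ELA and 0.456 ± 0.357 CPM in controls (log2 fold change 2.07, edgeR adjusted p = 0.445), and Lef1 averaged 3.85 ± 1.04 CPM in ELA and 6.01 ± 1.80 CPM in controls (log2 fold change -0.64, edgeR adjusted p = 0.714). Sox2, a stem cell factor, averaged 2.00 ± 2.57 CPM in ELA and 0.662 ± 0.159 CPM in controls. Its log2 fold change of 1.58 rested on t-205-1-3, and without this mouse it was 0.42.

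For each factor, the genes with the most similar pattern over the 9 mice were sought among 11408 genes of at least 5 CPM, by the root-mean-square difference of mean-centred log2 CPM. Trp63 and Satb1 were near to each other, with a difference of 0.110, Satb1 being the nearest gene to Trp63 and Trp63 the second nearest to Satb1 after Chrna7 (0.0570). For Runx1 the nearest were Dmd (0.170) and D630045J12Rik (0.186), and for Runx2 Sorbs2 (0.110) and Hsd17b7 (0.130), so that neither paralogue was among the nearest of the other. The remaining factors had Gga2 and Map7d1 (Sp6), Aldh2 and H2-T23 (Cebpa), Aff1 and Lrrc8c (Foxo1) and Egfr and Usp32 (Bcl11b) as nearest genes. These are descriptions over 9 libraries that share group, depth and tissue composition.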

How the data were processed

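RNA libraries of enamel organs from 9 male mice were sequenced, 5 ELA and 4 control, with groups taken from the sample labels. The authors deposited whole-number counts per Ensembl gene with a length per gene, and the submitters' processing notes name CASAVA, HISAT and HISAT2. The sources used here do not name the counter, its strand setting or the build. Coordinates are those of the table, read as GRCm38. All sample columns were assigned by name.

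Counts were tested with edgeR 4.0.16 in R 4.3.3 (filterByExpr with a count minimum of 10, TMM, glmQLFit with robust estimation, glmQLFTest), two-sided, calling genes at 0.05 after Benjamini-Hochberg adjustment over the 15909 genes tested. DESeq2 1.42.0, named in the methods of the study, and limma-voom 3.58.1 were alternatives, with other scalings, no filter, counts summed by title number, and each mouse left out. FPKM used the library total and the deposited length. The prior count of log2 CPM was 2. The ratio of Runx1 to Runx2 was tested by exact permutation (scipy 1.17.1). Scripts were tested on simulated data. P-values measure the spread between mice. Mice that share a title number may be littermates, so their independence is not known.

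The factors and gene lists were chosen with earlier results of these data known. The text names all factors and targets, the 6 genes of smallest p of each other list, any gene of the lists past the adjusted threshold, and the 2 genes nearest in pattern to each factor, except 2 genes that are not reported here.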

Additional observations from a re-analysis of the deposited data

Results flagged for a closer look

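Of 72 groups of values examined for a mouse far from the rest of its group, 2 had one, and chance gives about 1 in 20; none was of the 8 factors. In Sox9 the control mouse c-202-1-2, at 26.4 CPM, was far above the other controls. In Sox2 the ELA mouse t-205-1-3, at 6.46 CPM, was far above the other ELA mice.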

How the results depend on the processing

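The count of factors called was 0 under every alternative run. Runx1 kept a positive log2 fold change under 16 alternatives (0.49 to 0.89, with edgeR, DESeq2 or limma-voom adjusted p of 0.322 to 1.00), as did Sp6 (0.047 to 0.34), Satb1 (0.17 to 0.49), Trp63 (0.060 to 0.41) and Foxo1 (0.072 to 0.34), and Cebpa stayed negative (-0.35 to -0.10). With each mouse left out, Runx2 was -0.28 to 0.14 and Bcl11b -0.094 to 0.23. Scaling to epithelial markers moved the median log2 fold change of all genes to 0.20, and gave 0.16 for Runx2, 0.042 for Cbfb, 0.0032 for Trp53 and 0.034 for Krt5. Library totals only moved that median to -0.049, and log2 fold changes were then -0.0021 for Bcl11b, -0.066 for Klk4, -0.033 for Itgb4, -0.0057 for Dsc3, -0.033 for Jag2 and -0.041 for Rock1. Limma-voom gave -0.014 for Bcl11b, -0.0074 for Klk4 and -0.0028 for Rock1. Leaving out single mice gave -0.0066 to 0.18 for Mmp20, -0.084 to 0.064 for Klk4, -0.083 to 0.12 for Itgb4, -0.081 to 0.18 for Dsc3, -0.11 to 0.23 for Jag2 and -0.14 to 0.16 for Rock1. These genes lie near 0. The scalings moved genes by unequal amounts: scaled to epithelial markers, Sox2 went from 1.58 to 1.60 and Enam from 5.30 to 5.67. The cause of the changes of sign was not tested.

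Over all genes, edgeR called 6 higher and 4 lower in ELA. Library totals gave 2 and 2, no filter gave 22 and 16, DESeq2 gave 79 and 59, and summing counts by title number gave 3 and 0, with 4 samples in place of 9. Leaving out single mice gave 0 to 16 higher and 0 to 9 lower genes, the largest counts being without t-205-1-3. Amelx had an adjusted p of 0.188 when counts were summed by title number. With TMM sizes, 6 neighbouring pairs of factors overlapped in FPKM in place of 5. Sp6, at 68 to 145 counts, is the factor whose value is most limited by depth. No paired analysis was possible because no title number occurs in both groups.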
